A study of Mus musculus with 2 samples.

Results

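Each of the 8 plates of this study carried wells that held bone marrow material instead of a sorted T cell, and these wells are described here against the T cells of the same plates. A well was taken as marrow when its name in the count tables ended in mBM10 or mBM100 and it held at least 100000 reads. By this rule 22 of 768 wells were used, 13 of the kind mBM10 and 9 of the kind mBM100. The labels do not say what the numbers in these names stand for, or from which animals the marrow came. For comparison, 735 of 736 T cell wells held at least 10000 reads. The question behind the T cell plates was whether an IL-13 signal received by host dendritic cells affects the formation of follicular helper T cells. OTII CD4 T cells, which carry a transgenic T cell receptor, were transferred into host mice. They were sorted from the spleen as PI-, Vb5.1-5.2+ and CD4+ cells on day 7 after a treatment that the labels call CAS and second priming. On plates 9 to 12 the T cells came from a pool of 2 C57BL/6 control hosts. On plates 13 to 16 they came from a pool of 3 hosts of the genotype IL13Ra1f/f, CD11cCre/+, in which Cre is driven by the promoter of CD11c, a gene of dendritic cells that some macrophages also express. Ages were not given in the labels. Each pool is 1 sample, so nothing here tests the hosts' genotype.

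Bone marrow is the site where blood cells are made. Its granulocyte precursors fill primary granules with myeloperoxidase and serine proteases, and later secondary granules with lactoferrin and antimicrobial peptides. Its erythroblasts make haemoglobin from alpha and beta globin and haem. B cell precursors assemble a receptor with surrogate light chains before they leave the marrow. Mature helper T cells of the spleen do not run these programmes.

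The mBM10 wells held 680127 to 2740373 reads with a median of 1946949. The mBM100 wells held 580094 to 1872166 reads with a median of 764142. Well H9 was mBM10 on every plate and H10 was mBM100 on every plate. H11 was mBM10 on 5 plates, mBM100 on 2 plates and dw on 1 plate. The mBM100 well H10 of plate 10 held 11622 reads, within the 6698 to 12348 reads of the 9 wells named noinput or dw, and was left out. T cell wells held 71129 to 2866366 reads with a median of 1530303. Nothing in the labels says that the marrow wells came from separate animals, so the spread between them may be technical, and every p-value below measures that spread only. Levels are given as CPM, the reads of a gene for every 1e6 reads of its well. PCR copies were not separated by molecular identifiers, so binomial intervals cover counting error only.

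All 8 marrow markers set for these wells were far higher in marrow than in T cells, and none of them goes against the reading of the well names as bone marrow. For each plate the mean of its mBM100 wells was divided by its summed T cells on the CPM plus 1 scale. A gene was called when the ratio was at least 4-fold in one direction on all 8 plates. There is no p-value because neither side has replicate animals. Of 10841 genes at 5 CPM or more on either side, 558 were called higher in marrow (5.15%) and 287 higher in T cells (2.65%). A gene could pass this filter through its high side alone. Calls counted within a lineage list are therefore partly set by the filter and serve as description only. At 100 CPM or more in the higher side these numbers were 225 and 177. The median log2 ratio over all genes tested was -0.47. With mBM10 wells in place of mBM100 the marrow count fell to 207 and the T cell count was 421. With a pseudocount of 5 the counts were 365 and 208.

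**Figure D1:**
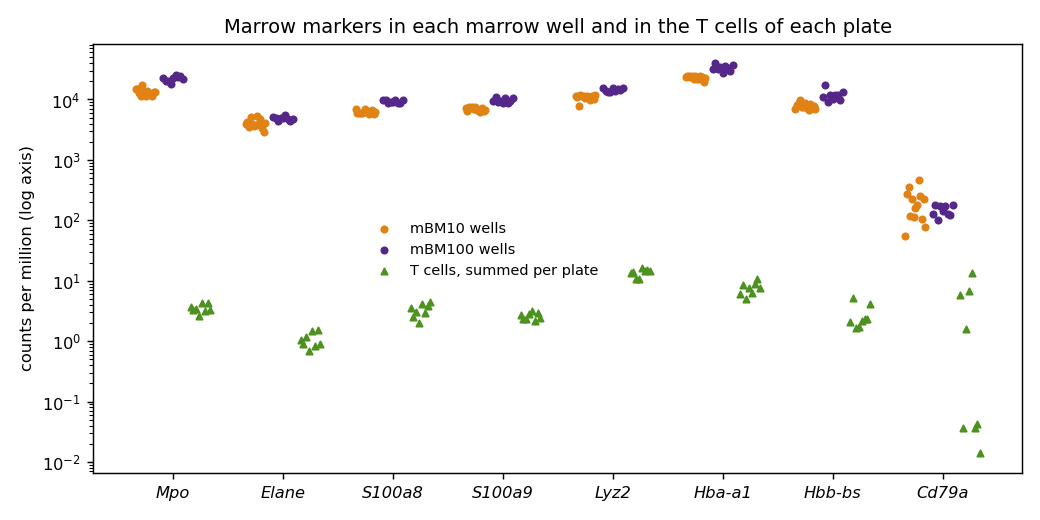
CPM (log axis) of the 8 marrow markers in each of 13 mBM10 wells, each of 9 mBM100 wells and the summed T cells of each of 8 plates. The marrow points of 7 markers lie at 2940 CPM or more, Cd79a lies between 55.5 and 457 CPM in marrow, and its T cell points split into 4 plates at 1.61 CPM or more and 4 at 0.0434 CPM or less.

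Among genes of the primary granules, 8 of 9 list members were called higher in marrow and none was called higher in T cells. Mpo, which encodes myeloperoxidase, had 11529 to 17601 CPM in mBM10 wells (median 13170) and 17980 to 25001 CPM in mBM100 wells (median 22278). In the T cells of the 8 plates it had a mean of 3.51 CPM. Every mBM100 well was above every mBM10 well, and marrow exceeded T cells 4779-fold in the median plate. Elane, neutrophil elastase, had 2940 to 5246 CPM in mBM10 and 4368 to 5476 CPM in mBM100 wells, and these ranges overlapped. Prtn3, proteinase 3, had 1646 to 2623 and 1976 to 2674 CPM. The cathepsin G gene Ctsg stood at 336 CPM in the mBM100 mean, the membrane protein gene Ms4a3 at 380 CPM, the ficolin gene Fcnb at 337 CPM and the serine protease gene Prss57 at 141 CPM. Cebpe, a transcription factor of granulocyte maturation, had 81.8 CPM in mBM100 wells and 0.028 CPM in T cells. Gfi1, a repressor that T cells also express, was the member not called, with 36.5 CPM in mBM100 wells and 61.0 CPM in T cells.

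Late granulocyte genes held the largest share of marrow reads among the lineage lists, 8.31% in mBM100 and 6.13% in mBM10 wells against 0.00632% in T cells. All 22 members that reached the level tested were called higher in marrow, at a median log2 ratio of 8.74. Of these, 2 reached 5 CPM in T cells, and the others were tested through their marrow level alone. Ngp, neutrophilic granule protein, had 29169 to 35641 CPM in mBM100 wells and 19001 to 24977 CPM in mBM10 wells. Ltf, lactoferrin, had 11495 to 14756 and 5815 to 10713 CPM in the same order. S100a8 and S100a9 encode the subunits of calprotectin, the abundant cytosolic protein of neutrophils. S100a8 had 8647 to 9919 CPM in mBM100 and 5754 to 7057 CPM in mBM10 wells. S100a9 had 8671 to 10793 and 6246 to 7474 CPM. For these 4 genes the kinds did not overlap. Camp, the cathelicidin gene, had 4260 to 5692 CPM in mBM100 and 2527 to 4367 CPM in mBM10 wells, which overlapped. Genes of later stages were lower: Retnlg had a mean of 969 CPM in mBM100 wells, the collagenase gene Mmp8 and the gelatinase gene Mmp9 had 549 and 470 CPM, Ly6g had 82.1 CPM, and the chemokine receptor gene Cxcr2 had 47.1 CPM. Stfa2l1 and BC100530 stayed under 5 CPM in all 3 means.

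The eosinophil and basophil list took 2.07% of reads in mBM100 wells, mostly from 2 eosinophil granule genes. Prg2, major basic protein, had 13728 to 16011 CPM in mBM100 and 8647 to 12478 CPM in mBM10 wells, without overlap. Epx, eosinophil peroxidase, had 2800 to 3624 and 1734 to 4069 CPM, with overlap. The basophil protease genes Prss34 and Mcpt8 had 818 and 174 CPM in the mBM100 mean. Mast cell and basophil receptor genes were low, with Cpa3 at 19.4 CPM, Fcer1a at 10.6 CPM and Ms4a2 at 6.30 CPM. In all, 7 of 10 members were called higher in marrow, and 0 reached 5 CPM in T cells.

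Monocyte genes took 1.67% of reads in mBM100 wells, and 7 of 12 were called. Lyz2, lysozyme, which granulocytes express too, held most of that share with 13169 to 15233 CPM in mBM100 and 7799 to 11832 CPM in mBM10 wells. Ly6c2 had a mean of 908 CPM in mBM100 wells, F13a1 303 CPM, Ccr2 82.7 CPM and Csf1r, the receptor of macrophage colony-stimulating factor, 151 CPM. Irf8 (399 CPM in mBM100 wells, 52.9 CPM in T cells), Ctss (153 and 208 CPM) and Ms4a6c (61.1 and 275 CPM) were not called. Among macrophage genes 6 of 11 were called, led by Vcam1 at 324 CPM and the iron exporter gene Slc40a1 at 239 CPM. The macrophage sum ran from 117 to 1851 CPM between mBM10 wells and from 672 to 1031 CPM between mBM100 wells. The plasmacytoid dendritic cell gene Siglech had 56.5 CPM in mBM100 wells, and Xcr1, of conventional dendritic cells, had 1.70 CPM.

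Erythroid genes took 5.59% of reads in mBM100, 4.02% in mBM10 wells and 0.0109% in T cells. Of 25 measured members 23 were called higher in marrow, and 6 of the 25 reached 5 CPM in T cells. Hba-a1, alpha globin, had the highest mean in the marrow wells after the row LOC101056014. Hba-a1 had 27868 to 39425 CPM in mBM100 and 19378 to 24725 CPM in mBM10 wells, without overlap. Hbb-bs, a beta globin gene, had 9064 to 17468 and 6709 to 9632 CPM, and its highest value came from well H11 of plate 10. Hbb-bt, the other adult beta globin gene, had 2893 to 4961 and 1863 to 2923 CPM. Hba-a2 had 16.7 to 317 CPM in mBM100 and 5.48 to 63.5 CPM in mBM10 wells, far under Hba-a1. The alpha globin genes lie on chromosome 11 of GRCm38, Hba-a1 at chr11:32283511-32284465 and Hba-a2 at chr11:32296489-32297298, both on the plus strand. The beta globin genes lie on the minus strand of chromosome 7, Hbb-bs at chr7:103826534-103828096 and Hbb-bt at chr7:103812524-103813996.

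The coding sequences of each pair are nearly the same. In the GENCODE M21 transcripts the 429 coding bases of Hba-a1 and Hba-a2 differ at 1 base, C381T, and the 444 coding bases of Hbb-bs and Hbb-bt at 1 base, C417T, both counted from the A of the start codon with the first gene's base first. Neither changes an amino acid. The stretches around these bases are given with the differing base in capitals, bases 354 to 408 of the alpha globin pair and 390 to 444 of the beta globin pair.
Hba-a1: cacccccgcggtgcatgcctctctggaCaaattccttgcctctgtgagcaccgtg
Hba-a2: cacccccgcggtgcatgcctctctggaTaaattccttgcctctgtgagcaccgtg
Hbb-bs: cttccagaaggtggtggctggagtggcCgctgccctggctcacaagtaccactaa
Hbb-bt: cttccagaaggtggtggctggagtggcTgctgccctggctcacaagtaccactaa
The longest stretch without a difference is 380 coding bases in the alpha pair and 416 in the beta pair. Whole transcripts are 699 and 554 bases long in the alpha pair and 628 and 703 in the beta pair. Their untranslated bases were not compared. Coding bases alone do not settle how reads of a pair were split, and this was not tested. How multiply mapped reads were counted is not given in the sources used here.

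Erythroid genes beyond the globins were also present. Car2, a carbonic anhydrase gene, had 2079 to 3097 CPM in mBM100 wells and 14.6 CPM in T cells. Alas2, which encodes the first enzyme of haem synthesis in red cells, had a mean of 613 CPM in mBM100 wells, Slc4a1, the band 3 anion exchanger, 589 CPM, and Car1 553 CPM. Among erythroid regulators Klf1 had 251 CPM, Gata1 112 CPM and Epor, the erythropoietin receptor gene, 52.8 CPM. Gata1 and Bpgm were the 2 members not called on all 8 plates, with 8.72 and 37.4 CPM in T cells. Of 9 genes of the general haem pathway and mitochondrial iron import, 3 were called, among them Alad (1152 CPM in mBM100 wells, 18.7 CPM in T cells) and Fech (537 and 45.9 CPM). All 9 were at 5 CPM or more in T cells.

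Compared per kilobase of exon in the mBM100 mean, Hba-a1 led the 8 markers at 47649 CPM per kilobase. S100a8 followed at 19085, Hbb-bs at 18735 and S100a9 at 18510, and these 3 lay within the spread of their wells. Lyz2 stood at 10851, Mpo at 7581, Elane at 4943 and Cd79a at 101 CPM per kilobase.

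The start regions of S100a9 and Epx are shown as examples from the late granulocyte and eosinophil lists, because their RefSeq and GENCODE starts are the same base. Each run is the 200 bases before the start in GRCm38.p6, taken from RefSeq and read on the gene's own minus strand. Capitals mark matches, on either strand, to the GATA box (AGATAA), the CACCC box, the CCAAT box and the TATA box (searched as TATAAA). None of these motifs holds another.
S100a9, chr3:90695722-90695921: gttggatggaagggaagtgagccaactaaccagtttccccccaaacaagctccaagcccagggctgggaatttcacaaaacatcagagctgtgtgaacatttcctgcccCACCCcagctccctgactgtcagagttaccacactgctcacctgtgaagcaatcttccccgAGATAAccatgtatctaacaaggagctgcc
Epx, chr11:87875537-87875736: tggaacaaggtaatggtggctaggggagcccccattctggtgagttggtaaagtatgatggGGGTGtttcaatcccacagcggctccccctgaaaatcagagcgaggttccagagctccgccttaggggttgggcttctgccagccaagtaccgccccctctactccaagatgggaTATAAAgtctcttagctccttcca
The S100a9 window held a CACCC and a GATA match, and the Epx window held a CACCC match on the other strand and a TATA match. Promoters were matched for 19 of 26 erythroid genes, of which 14 held CACCC (73.7%), 10 the CCAAT box (52.6%) and 4 the GATA box (21.1%). Over all 32851 promoters of the table the shares were 45.5%, 29.3% and 7.80%. CACCC and GATA boxes were also frequent in 21 matched late granulocyte genes (66.7% and 19.0%), and 9 matched eosinophil genes had them in 55.6% and 44.4%. The TATA box was found in 33.3% of the late granulocyte, 33.3% of the eosinophil and 21.1% of the erythroid genes, against 9.96% of all promoters. Of 7 matched primary granule genes 6 held CACCC (85.7%), 0 the GATA box and 0 the TATA box. These are matches of letters, not measured binding sites.

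Stem and progenitor genes were low in the marrow wells, at 641 to 919 CPM summed over 18 genes in mBM100 wells and 392 to 1462 CPM in mBM10 wells. The T cells had 461 to 711 CPM for the same list, and Myb (156 CPM in mBM100 wells, 200 to 288 CPM in T cells), Sox4 (71.2 and 168 CPM) and Ly6a (11.5 and 144 CPM) were higher there in the mean. Of 14 members tested 5 were called higher in marrow, namely Kit, Cd34, Spi1, Gata2 and Adgrg1. Spi1, which encodes the myeloid factor PU.1, had 211 to 354 CPM in mBM100 wells and 2.12 CPM in T cells. Cd34 had 60.5 CPM, Kit, the stem cell factor receptor gene, 34.6 CPM and Gata2 25.7 CPM in the mBM100 mean. Long-term stem cell genes were near the floor, with Hlf at 2.78 CPM, Mecom at 1.94 CPM and Procr at 2.84 CPM. Platelet genes were low as well, with Itga2b at 83.2 CPM and Pf4 at 47.1 CPM, and 4 of 11 tested members were called.

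B cell precursor genes summed to 670 to 1048 CPM in mBM100 and 574 to 1670 CPM in mBM10 wells, 0.0877% and 0.109% of reads. Of 11 members tested 9 were called, and 0 reached 5 CPM in T cells. Cd79b and Cd79a, the signalling chains of the B cell receptor, had 171 and 147 CPM in the mBM100 mean. Igll1 and Vpreb1, which encode the surrogate light chain, had 78.8 and 39.4 CPM, the second without a call, Vpreb3 76.2 CPM, Ebf1 71.1 CPM and Pax5 10.8 CPM. Dntt, terminal transferase, had 40.9 CPM, while the recombinase genes Rag1 and Rag2 had 2.79 and 6.77 CPM. The mature B cell gene Ms4a1 had 34.7 CPM, and Cd74, an invariant chain gene of all antigen-presenting cells, 652 CPM. The counts held no rows under the symbols Ighm, Ighd, Igkc and Igha, so the mature B cell and plasma cell sums lack these genes.

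In T cells Cd79a was unevenly spread. It had 1.61 to 13.7 CPM in the T cells of plates 9, 11, 12 and 13 and 0.0139 to 0.0434 CPM on plates 10, 14, 15 and 16. Of its 3804 reads in 735 T cell wells, 3743 lay in 9 wells on 4 plates (98.4%). Those 9 wells held 47 to 954 Cd79a reads, 64 to 1010 reads of the T cell gene Cd3e, 1 read of Cd79b in all and none of Ms4a1.

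On the T cell side, the 12 largest ratios among named genes were those of Izumo1r (252-fold), Tox (242-fold), Tcf7 (187-fold), Als2cl, Cd5, Syt11, Cd247, Bcl11b, Cd4, Gata3, Gimap3 and Rnf43 (117-fold). Of 15 T cell list genes with a row, 12 were called higher in T cells and none higher in marrow. They summed to 115 to 279 CPM in mBM100 wells, 24.8 to 426 CPM in mBM10 wells and 10772 to 12598 CPM in T cells. Cd3e had 2.70 CPM in the mBM100 mean and 217 CPM in T cells. Of 7 natural killer genes tested 1 was called higher in marrow, Nkg7 at 317 CPM. Of 5 stromal and endothelial genes tested 1 was called, the chemokine gene Cxcl12 at 20.6 CPM, and Col3a1 was at 0 in every marrow well.

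Proliferation genes were the other large difference. They took 0.912% of reads in mBM100, 0.964% in mBM10 wells and 0.136% in T cells, and 17 of 26 were called higher in marrow. Mki67 had 452 CPM in mBM100 wells and 7.38 CPM in T cells, Ccnb1 221 and 3.40 CPM, and Top2a 373 and 8.81 CPM. The replication licensing genes Mcm2 to Mcm7 were not called, with T cell means of 66.6 to 166 CPM. Of the 11 housekeeping genes none was called. Actb and Eef1a1 were 1.19-fold and 1.02-fold apart, and B2m and Tbp, the furthest apart, 2.78-fold and 2.27-fold with the higher level in T cells. Gapdh had only 8.62 CPM in mBM100 wells and 6.86 CPM in T cells. In these mixed wells, fewer cells of a lineage and less RNA per cell cannot be told apart.

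**Figure D2:**
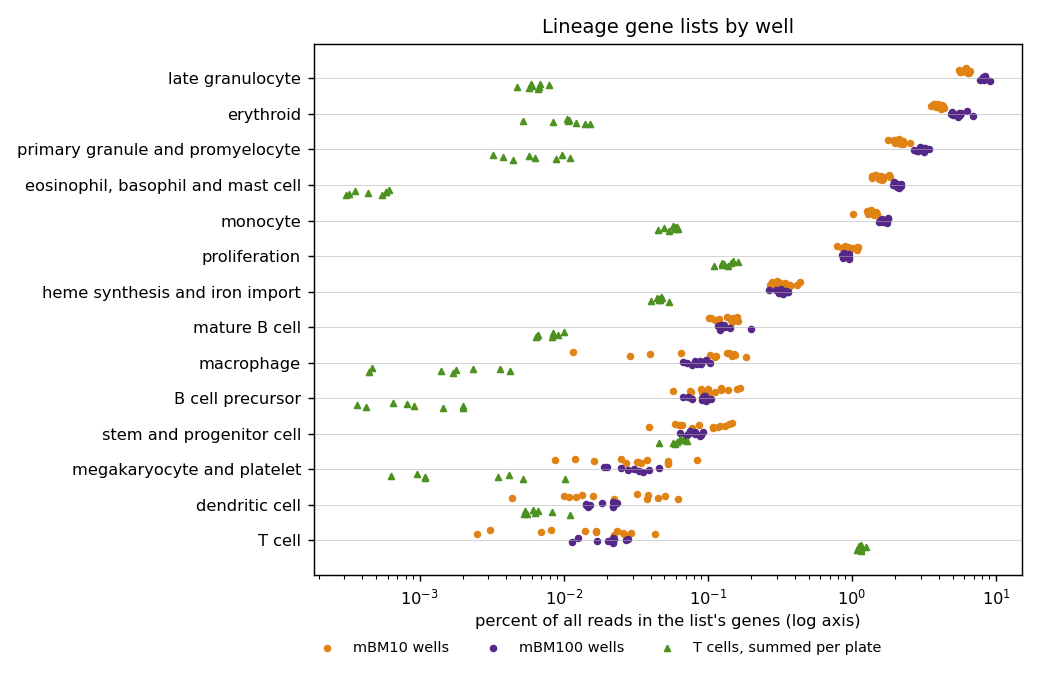
Percent of all reads of a well (log axis) in 14 gene lists, for 13 mBM10 wells, 9 mBM100 wells and the summed T cells of 8 plates. The marrow points of the late granulocyte, erythroid, primary granule and eosinophil lists lie far from those of T cells, the stem and progenitor list overlaps with T cells, and mBM10 points scatter more than mBM100 points in the low lists.

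The ratio of granulocyte to erythroid reads overlapped between the kinds of well. The late granulocyte sum divided by the erythroid sum was 1.28 to 1.75 in mBM10 wells (median 1.54) and 1.20 to 1.73 in mBM100 wells (median 1.51). The primary granule sum divided by the late granulocyte sum was 0.342 ± 0.0315 (SD, n = 13) and 0.366 ± 0.0277 (SD, n = 9), with overlapping ranges. Proliferation over erythroid was higher in mBM10 wells, at 0.212 to 0.287 against 0.126 to 0.193, without overlap. As shares of reads, the primary granule, late granulocyte, monocyte, eosinophil, erythroid and housekeeping sums were higher in every mBM100 well than in any mBM10 well, by 1.23-fold to 1.45-fold in the means. The proliferation, B cell, progenitor, haem, platelet and macrophage sums overlapped between kinds.

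More genes were seen in mBM100 wells. The mBM10 wells had 4549 to 5537 genes with 5 reads or more, 4971 ± 301 (SD, n = 13), and the mBM100 wells had 7901 to 9799, 8779 ± 650 (SD, n = 9). Every mBM100 well was above every mBM10 well although mBM100 totals were lower on 7 of 8 plates. The mean difference was 3812 genes and was positive on 8 of 8 plates (exact sign-flip permutation test over plates, two-sided, p = 0.0078125, the smallest it can give, Benjamini-Hochberg adjusted over 5 measures to 0.0098). The difference in totals was not separated from the spread (exact permutation test, adjusted p = 0.109), although without plate 10 the test gave p = 0.015625. With all wells thinned to 100000 reads the counts were 3049 to 3575 and 3414 to 3876, ranges that overlap, with a mean difference of 372 genes that was positive on 8 of 8 plates (exact permutation test, adjusted p = 0.0098). Among wells in position H11 the 2 mBM100 wells had 9799 and 9028 genes and the 5 mBM10 wells, all on other plates, 4693 to 5537.

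**Figure D3:**
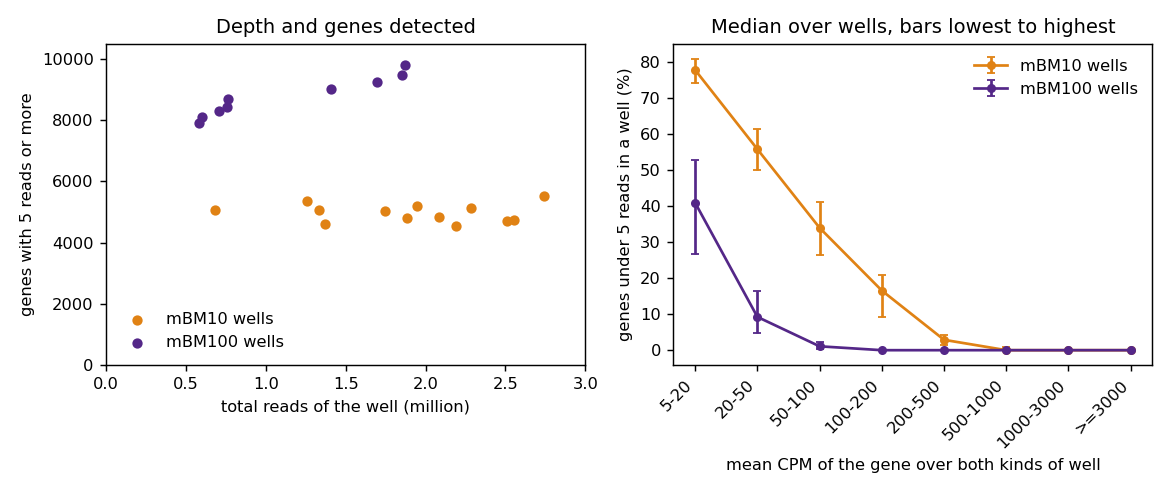
Left, genes with 5 reads or more in each marrow well (y) against its total reads (x). All 9 mBM100 wells lie above all 13 mBM10 wells, and no mBM100 well reaches the highest mBM10 totals. Right, percent of genes under 5 reads in a well by the gene's mean CPM over both kinds, as the median over wells with bars from the lowest to the highest well; between 20 and 50 CPM the medians are 55.7% in mBM10 and 9.22% in mBM100 wells.

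The missing genes of mBM10 wells were those of low and middle level, and different wells missed different genes. Genes were put into classes by the mean of both kinds, a choice made after seeing the data. Of genes with 50 to 100 CPM, a median of 33.9% had under 5 reads in an mBM10 well and 1.07% in an mBM100 well. Between 100 and 200 CPM the medians were 16.5% and 0%, and from 500 CPM they were 0% in both kinds. With classes set by the mBM10 mean, which favours genes seen there, the medians at 50 to 100 CPM were 36.7% and 2.94%. Of 9665 genes at 5 CPM or more in the mean of both kinds, the median mBM10 well held 49.8% at 5 reads or more and the median mBM100 well 84.3%. At least 1 mBM10 well held 9542 of them at 5 reads or more, and at least 1 mBM100 well 9597. The coefficient of variation between wells, as the median over genes of 100 to 200 CPM, was 88.9% in mBM10 and 31.2% in mBM100 wells. Between 1000 and 3000 CPM it was 27.1% and 11.6%.

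The lineage lists differed in how far their members were seen. A member of the primary granule, late granulocyte or eosinophil list had 5 reads or more in 13 of 13 mBM10 and 9 of 9 mBM100 wells in the median, and an erythroid member in 12 and 9. The medians were 9 of 13 and 9 of 9 wells for B cell precursor genes, 6 and 9 for macrophage genes and 2.5 and 6.5 for stem and progenitor genes. Gata2, for example, reached 5 reads in 1 mBM10 well and in 9 mBM100 wells. Members also went the other way, such as Nrgn of the platelet list, seen in 9 of 13 mBM10 and 2 of 9 mBM100 wells.

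Profiles of mBM100 wells were close to each other. Over genes, log2(CPM + 1) of mBM100 pairs correlated at Pearson r of 0.887 to 0.910 (36 pairs), mBM10 pairs at 0.604 to 0.685 (78 pairs), and pairs of unlike kind at 0.695 to 0.767 (117 pairs). The sum of the 13 mBM10 wells correlated with each mBM100 well at 0.900 to 0.917. An mBM100 well correlated with the summed T cells of its own plate at 0.797 to 0.818. That is above its values with single mBM10 wells and below those with the summed mBM10 wells. A sum of many wells and a single well are unlike measures, so these values do not rank likeness. These correlations are across genes, which are not replicates, and all pairs share the same gene set and chemistry. The r of a well with the mean of the mBM100 wells of the other plates was 0.731 to 0.799 for mBM10 and 0.934 to 0.949 for mBM100 (exact sign-flip permutation test over 8 plates, adjusted p = 0.0098, higher on 8 of 8). That mean holds mBM100 wells only, so the measure favours wells of the same kind. No conclusion is drawn from its test.

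The most abundant genes took a larger share of the reads in mBM100 wells. The top 50 genes of a well held 35.0% to 40.2% of its reads in mBM100 and 26.2% to 31.7% in mBM10 wells, a mean difference of 8.92 percentage points on 8 of 8 plates (exact sign-flip permutation test, adjusted p = 0.0098). The 21 genes at 3000 CPM or more in the mean of both kinds took 31.2% and 22.5% of reads. The largest of them was LOC101056014, which was neither called nor a marrow gene by the 4-fold rule. It took 5.75% to 13.1% of reads in mBM100 wells, 4.30% to 10.4% in mBM10 wells and 5.11% to 8.04% in T cells. Among the 79 genes at 1000 CPM or more in the mean of both kinds, 21 were called higher in mBM100 wells (26.6%) and none lower (edgeR quasi-likelihood test with plate as a block, Benjamini-Hochberg adjusted p under 0.05 over 9416 genes). Marrow genes by the 4-fold rule made up 27 of the 79. Of the 21, 13 were marrow genes by this rule: Hba-a1, Hbb-bs, Hbb-bt, Car2, Mpo, Ngp, Ltf, Lyz2, S100a8, S100a9, Camp, Prg2 and the glutathione peroxidase gene Gpx1. The call of Car2 was held in 7 of 15 settings and was lost without the plate block (edgeR adjusted p = 0.358). The other 8 are broadly expressed genes, Actb, Pfn1 and Tmsb4x of the actin cytoskeleton, the elongation factor gene Eef1a1, the ferritin genes Fth1 and Ftl1, Oaz1 and Ptma. All 21 ratios of means lay between 1.32 and 1.76, against a median of 1.15 over the 79 genes, of which 63 were higher in mBM100.

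The call held under all 15 settings for 5 of these genes. On simulated data the fit also called some unchanged genes at this level, so a single call can be false. Mpo rose by a log2 fold change of 0.68 (SE 0.078, adjusted p = 3.87e-05 by edgeR), Ltf by 0.70 (SE 0.105), S100a8 by 0.55 (SE 0.057), Hbb-bt by 0.59 (SE 0.106) and Pfn1, profilin 1, by 0.76 (SE 0.103). In DESeq2 these were the 5 called of the 79, while upper-quartile scaling called 61 and thinning to the smallest total 45. Hba-a1 (0.50, SE 0.067) and Ngp (0.50, SE 0.048) passed in edgeR and missed the threshold in DESeq2, with adjusted p of 0.0771 and 0.0702. Every mBM100 well was above every mBM10 well for 13 of the 79 genes (16.5%), and for none was the order the other way.

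**Figure D4:**
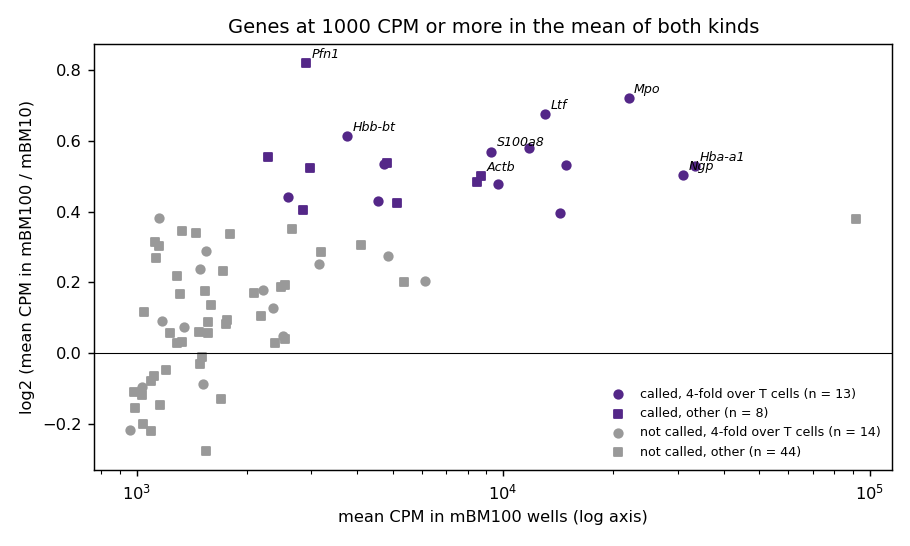
Log2 ratio of mean CPM, mBM100 over mBM10, against mean CPM in mBM100 wells (log axis) for the 79 genes at 1000 CPM or more. The 21 called genes (purple) lie between ratios of 1.32 and 1.76; circles are the genes 4-fold higher in marrow than in T cells, and squares the other genes.

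Below 1000 CPM the same fit gave calls that the levels do not bear out. It called 839 genes higher in mBM100 wells in all (8.91% of 9416) and 0 lower. None of the calls lay between 100 and 1000 CPM, and 818 lay under 100 CPM, where 72 of the called genes had a lower mean in mBM100 than in mBM10 wells. Under 20 CPM the median fitted log2 fold change was 3.59 while the median log2 ratio of the mean CPM was 0.09. Genes seen in few wells of one kind, such as Gnb4 (5 reads or more in 1 of 13 mBM10 and 9 of 9 mBM100 wells), Sord (2 and 8), Gys1 (1 and 9) and Man1c1 (0 and 9), led the list. These calls are not read here as differences in level.

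The marrow wells also show how far plates differ when the T cells are left aside. Between the 4 plates of the control pool and the 4 of the deleted pool, 0 of 8284 genes were called in mBM100 wells (0%, edgeR quasi-likelihood test, 232 genes at an unadjusted p under 0.05). DESeq2 called 6. In mBM10 wells 0 genes were called and 196 had an unadjusted p under 0.05. On simulated data the mBM100 fit missed most 2-fold changes, so a lack of calls does not show that the plate sets were alike. A set of 15 genes, chosen from earlier results for their difference between the T cell pools, was looked up in marrow. In T cells their plate ranges do not overlap, and in mBM100 wells they overlapped for each gene, as they did for most genes of these wells. Junb, an AP-1 subunit, had 1143 to 1509 CPM on the control and 2687 to 3148 CPM on the deleted plates in T cells, and 386 to 551 and 430 to 693 CPM in mBM100 wells. Dusp5, a phosphatase of MAP kinases, had 25.7 to 48.4 and 153 to 278 CPM in T cells, and 52.3 to 77.6 and 34.0 to 89.6 CPM in mBM100 wells. Egr1, an immediate early transcription factor, had 173 to 482 and 94.0 to 136 CPM in T cells, and 21.8 to 56.9 and 19.8 to 48.1 CPM in mBM100 wells. At 100 CPM or more the plate sets did not overlap for 5.73% of genes in T cells, 2.89% in mBM100 and 3.06% in mBM10 wells. The T cell values sum all cell wells of a plate while the marrow values are means of few wells, so these shares are not directly comparable.

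Marrow transcripts were also found in wells that held a T cell, and where they were found followed the plate layout. The measure is the sum of 13 genes, the 12 with the largest ratio of marrow to T cells and Hbb-bt. It was 156582 to 177409 CPM in mBM100 wells, 105218 to 123350 CPM in mBM10 wells and 35.7 CPM over all T cell wells. T cell wells in columns 9 to 11, below which the marrow wells lay, had 95.1 CPM, and those in row H had 65.3 CPM. The remaining 503 wells, those of column 12 among them, had 12.4 CPM. Every one of 168 wells in columns 9 to 11 and of 64 in row H held 10 reads or more of these genes. Of the 503 other wells 218 did (43.3%, exact 95% interval 39.0% to 47.8%). That interval covers counting error only, and by plate the share ran more widely, from 33.3% on plate 14 to 55.6% on plate 15. On each of the 8 plates the wells sharing a row or column were higher than the rest, by at least 4.85-fold. Median totals were 1613275 reads in row H, 1464054 in columns 9 to 11 and 1540471 elsewhere.

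**Figure D5:**
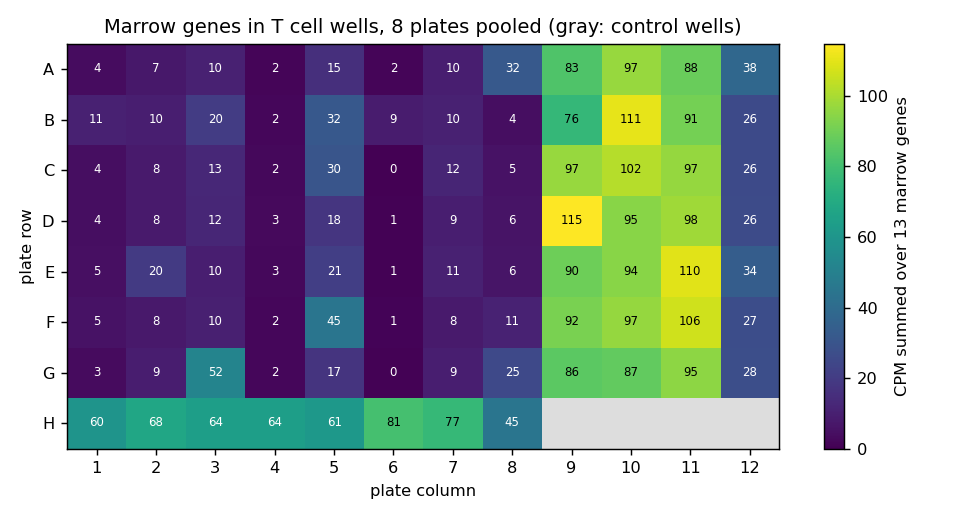
CPM summed over 13 marrow genes in the T cell wells of each plate position, pooled over 8 plates, by plate row and column; gray positions held the control wells. Columns 9 to 11 and row H stand out from the rest of the plate, with 95.1 and 65.3 CPM against 12.4 CPM, and wells of column 12 lie between.

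T cell wells in the column of 1 dw well had more marrow reads than those of the other dw columns. This was H11 of plate 13, which itself held 9387 reads, within the 6698 to 12348 of the noinput and dw wells. The 7 T cell wells of its column had 133 CPM of marrow genes, against 36.8 and 51.8 CPM in the other 2 dw columns. On plate 10, where the mBM100 well H10 held 11622 reads, the wells of column 10 had 101 CPM. Columns with a used mBM10 well ranged from 60.5 to 124 CPM and those with a used mBM100 well from 71.9 to 128 CPM. Columns of the 6 noinput wells had 13.4 to 45.6 CPM, and wells of columns 1 to 8 outside row H had 5.30 to 18.5 CPM. What carried marrow reads into these wells was not tested.

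The eosinophil genes show the layout most plainly. Epx had 425 reads in all 735 T cell wells and 0 in the 503 wells outside row H and columns 9 to 11, and Prg2 had 2295 and 10 reads. A count of 0 allows up to 0.00392 CPM of Epx in these wells, or a read in up to 0.596% of them. S100a8 had 3658 and 1212 reads and was seen in 285 of the 503 wells. Lyz2 behaved otherwise: it had 13.6 CPM over all T cell wells and 11.7 CPM in the 503 others, and every one of the 735 wells held a read of it. With only the 503 wells on the T cell side, 553 genes were called higher in marrow, of which 529 were among the 558, and 257 were called higher in T cells. The ratio of the mBM100 mean to pooled T cells rose from 6301 to 13840 for Mpo, from 4410 to 13831 for Hba-a1 and from 1051 to 1224 for Lyz2.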

How the data were processed

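Read counts per gene were deposited by the authors for 96 wells of each of 8 SmartSeq2 plates (full-length cDNA, 25 PCR cycles, Nextera XT per the labels' protocols). Per the submitters' processing notes featureCounts 2.0.1 and mm10 were used. No source used here gives the aligner, the strand setting or the handling of multiply mapped reads. Files hold 35976 gene rows. Gene lengths and positions come from GENCODE M21 and promoters from RefSeq (GRCm38.p6).

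CPM is the count divided by the column total. The members and lists were chosen with earlier results of these data known. Kinds of well were compared with edgeR 4.0.16 (R 4.3.3, TMM, genes with 10 reads or more in 4 wells or more, Benjamini-Hochberg at 0.05) with plate as a block, and plate sets without one. DESeq2 1.42.0 was an alternative. On simulated data the blocked fit missed most 2-fold changes and also called unchanged genes, mostly under 100 CPM. Single genes are therefore read at 1000 CPM or more only. Some unchanged genes were called at that level too, so a single call there can be false. The planned design took 1 well of each kind per plate, but several plates held 2 of a kind: all entered the fits, and paired tests used plate means. mBM10 wells of 1 plate correlated no better (median r 0.623) than wells of different plates (0.636). Named genes were the 8 markers, members of the granulocyte, erythroid, progenitor and B lists, up to 4 of each other list, the 12 largest changes at 20 CPM or more between kinds and ratios at 100 CPM or more against T cells, and the genes singled out between the T cell pools, leaving out predicted genes. Other genes named were chosen after their values were seen. Wells named noinput or dw entered no comparison. Alternatives changed the tool, filter, block, scaling, depth, pseudocount, fold, read minimum, wells and plates. Some members of the lists are counted in the sums and are not reported here by name.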

Additional observations from a re-analysis of the deposited data

Results flagged for a closer look

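A single mBM100 well lay far from the other 8 in 8 sets of values. In all 50 sets were examined, among them the marrow gene CPM of T cell wells on the control and on the deleted plates. Chance gives about 1 in 20 if sets are independent, but many of these share genes and wells. Well H11 of plate 10 had 17468 CPM of Hbb-bs with the next well at 13276, 11513 CPM of Actb with the next at 9316, and 1984 CPM of mature B cell genes with the next at 1426. Well H10 of plate 14 had 5692 CPM of Camp with the next at 4751, and 211 CPM of plasma cell genes with the next at 309. Well H10 of plate 9 had 3316 CPM of Oaz1 with the next at 3028, and 91144 CPM of late granulocyte genes with the next at 84179. Well H10 of plate 11 had 317 CPM of Hba-a2 with the next at 73.1.

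The 9 noinput and dw wells, which no comparison used, had a median of 18320 CPM of the 13 marrow genes (11600 to 25933) against 35.7 CPM in T cell wells. They held 6698 to 12348 reads in all. Their T cell list sum was 5313 to 7990 CPM, against 10772 to 12598 CPM in T cells. The failed mBM100 well of plate 10 had 21855 and 5421 CPM of the same sums. T cell wells in the column of the dw well H11 of plate 13 had 133 CPM of the marrow genes, above the 13.4 to 45.6 CPM of columns with a noinput well and the 36.8 and 51.8 CPM of the other dw columns.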

How the results depend on the processing

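Genes called higher in mBM100 than in mBM10 wells numbered 3203 in DESeq2 (11 lower), 1361 with upper-quartile scaling and 204 with no replicate block, against 839. Without each plate in turn they numbered 436 to 685, and 550, 495, 436 and 453 without plates 9, 12, 14 and 16. The median fitted log2 change over all genes was 1.69, 2.14 with upper-quartile scaling and -0.26 without the block. At 1000 CPM or more, 5 genes were called in DESeq2, 61 with upper-quartile scaling, 45 after thinning and 16 to 22 without a plate. DESeq2 called 6 genes between plate sets and edgeR 0 under its settings. Against T cells, marrow calls numbered 365 with a pseudocount of 5 and 207 with mBM10 wells, and T cell calls 763 at 2-fold. Without a plate these were 575 to 599 and 309 to 319. The difference in total reads between kinds ran from -851501 to -428231 without a plate. With TMM scaling late granulocyte genes took 6.47% of mBM10 reads in place of 6.13%. Why these values moved was not tested.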
